A study of Mus musculus with 3 samples.

Results

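Adipocyte identity rests on a small set of transcription factors. The genes of 10 of them (Pparg, Cebpa, Cebpb, Cebpd, Ebf1, Ebf2, Ebf3, Klf15, Rxra and Tbx15) were followed through nuclei of interscapular brown adipose tissue (BAT) of the mouse. They were chosen by name, with earlier results of these data known, and all 10 were among the 25154 genes listed in the 3 libraries. The libraries came from adult wild-type C57Bl6 mice (C57BL/6J in the study), 1 for each treatment: no treatment, sham operation and denervation, in which nerve branches to the tissue are cut. The study describes 8-week-old mice, nuclei from the floating layer of digested tissue that holds adipocytes and fragments of vessels, and cutting of the nerves on 1 side with sampling on day 3, with 20 mice each for the untreated and the denervated tissue. How the sham library was made was not given in the sources used here. With 1 library a treatment, no test between treatments was possible, and treatment, surgery, animals and library cannot be told apart, nor can tamoxifen, which the study's scheme for the denervated mice lists and its account of the untreated mice does not. Every interval below is a 95% interval for counting error alone.

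PPARG, a nuclear receptor that binds DNA together with an RXR partner such as RXRA, and the leucine zipper factors C/EBPα, C/EBPβ and C/EBPδ form the core of the adipocyte programme. In cultured preadipocytes C/EBPβ and C/EBPδ are induced first, and PPARG and C/EBPα follow and then sustain each other. EBF1, EBF2 and EBF3 are early B cell factors, of which EBF2 marks the brown lineage and its precursors. KLF15 is a Krüppel-like factor of fasting metabolism and a known target of the glucocorticoid receptor, and TBX15 is a T-box factor that differs between fat depots.

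Pparg lies on chromosome 6 (GRCm38, chr6:115360951-115490399, plus strand). It spans 129449 bp, of which 2.28% is exonic, and shares 13176 bp with the antisense gene Gm44079. RefSeq (GRCm38.p6) lists 3 starts for it. The 250 bases before the most downstream start are shown since they hold the motif that C/EBP factors bind, and those before the Klf15 start since Klf15 differed most between libraries.

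Pparg, chr6:115421816-115422065, plus strand: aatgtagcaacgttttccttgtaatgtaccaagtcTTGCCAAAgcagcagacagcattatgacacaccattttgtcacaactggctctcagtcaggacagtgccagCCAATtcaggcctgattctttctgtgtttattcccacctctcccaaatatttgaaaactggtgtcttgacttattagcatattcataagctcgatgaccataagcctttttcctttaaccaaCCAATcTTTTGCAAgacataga
Klf15, chr6:90462326-90462575, plus strand: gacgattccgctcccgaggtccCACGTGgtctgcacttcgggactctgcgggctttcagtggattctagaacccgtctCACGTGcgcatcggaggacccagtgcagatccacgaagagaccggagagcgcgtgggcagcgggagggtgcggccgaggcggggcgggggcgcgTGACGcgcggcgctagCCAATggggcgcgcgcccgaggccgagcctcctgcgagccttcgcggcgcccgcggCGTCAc

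Capitals in the Pparg window mark the C/EBP motif TTGCNNAA, read on either strand and beginning 215 and 16 bases before the start, and the CCAAT box, beginning 144 and 22 bases before it. These matches do not overlap. Of 32851 promoter windows of this length, 9.56% held the C/EBP motif and 33.8% held CCAAT. Capitals in the Klf15 window mark the E-box CACGTG, beginning 228 and 172 bases before the start, TGACG, which is a part of the cAMP response site, on either strand, beginning 78 and 6 bases before it, and CCAAT, beginning 62 bases before it. E-boxes occurred in 6.02% and TGACG in 17.8% of all windows. AGAACA, a part of the glucocorticoid receptor site held by 16.1% of windows, had no match in the Klf15 window. The full cAMP response and glucocorticoid receptor sites were not searched for. Promoters were found for 7 of the 10 genes, and a match describes letters, not a bound site.

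Nuclei were grouped by markers other than these 10 genes and 63 further regulators, which were left out of the clustering. Brown adipocyte-like nuclei numbered 4153, 3454 and 4888 in the untreated, sham and denervated libraries. In the same order there were 152, 928 and 896 white adipocyte-like, 5181, 5574 and 2452 endothelial-like, 621, 1386 and 783 pericyte-like and 28, 46 and 68 fibroblast-like nuclei. The 14 brown markers summed to 4090, 4803 and 4624 CPM (counts per 1000000, a gene's UMIs scaled to 1000000 UMIs of the class) in the brown nuclei, where Cpt1b was at 0. Ucp1 stood at 348, 403 and 312 CPM there and at 85.4, 116 and 75.02 in the white adipocyte-like nuclei, whereas the white marker Retn stood at 10.2, 73.5 and 29.3 in brown and at 359, 496 and 290 in white adipocyte-like nuclei. Genes of stress or inflammation led some groups: Atf3 and Hspa1a in 411 untreated brown nuclei, Jund, Atf3 and Fos among the leading genes of 768 sham brown nuclei, and Ptx3 and Cxcl1 in the denervated white adipocyte-like nuclei.

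Depth differed between the libraries, with 1901, 1384 and 891 UMIs in the median brown and 668, 519 and 385 in the median endothelial-like nucleus. Mitochondrial UMIs made up 6.71%, 12.9% and 2.95% of all UMIs. Between 251 and 278 cell barcodes were shared by any pair of libraries. Adipocyte RNA was also counted in other nuclei. The brown markers summed to 711, 578 and 1748 CPM in endothelial-like nuclei, where as many of them had UMIs as in the brown nuclei. With the markers of the other classes all taken as stray RNA, its share of UMIs came to 11.2%, 10.1% and 13.8% in brown and 22.8%, 20.6% and 44.01% in endothelial-like nuclei. Subtracting that share at the library's mean profile left 0, 0 and 0 of 269, 158 and 426 Ebf2 UMIs in endothelial-like nuclei, 0, 3 and 7 of 149, 108 and 81 for Cebpa, 22, 17 and 1 of 220, 165 and 144 for Cebpb and 2136, 2578 and 459 of 3613, 3499 and 1649 for Pparg. The endothelial-like levels below are given without subtraction.

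Pparg was highest in brown adipocyte-like nuclei in all 3 libraries, but at a finer clustering (resolution 1) white adipocyte-like nuclei lay above them in the untreated and sham libraries, by a log2 ratio of 0.15 and 0.26. Its level in brown nuclei was 2249 (2216 to 2282) CPM in the untreated, 1798 (1760 to 1836) in the sham and 2809 (2763 to 2857) in the denervated library. White adipocyte-like nuclei held 1968 (1788 to 2161), 1560 (1492 to 1630) and 1150 (1078 to 1225). Denervated brown nuclei thus lay above those of the other libraries, while denervated white adipocyte-like nuclei lay below theirs. Levels were 977 (946 to 1010), 987 (954 to 1020) and 1295 (1233 to 1359) in endothelial-like and 907 (828 to 991), 935 (880 to 994) and 1335 (1220 to 1457) in pericyte-like nuclei. Fibroblast-like nuclei, with 7, 16 and 30 Pparg UMIs, held 269 (108 to 554), 446 (255 to 724) and 705 (476 to 1006).

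The Pparg log2 ratio of brown to endothelial-like nuclei was 1.20 (1.15 to 1.25), 0.87 (0.81 to 0.92) and 1.12 (1.04 to 1.19). For Plin1, the perilipin that coats lipid droplets, it was 3.41, 3.70 and 1.77. Plin1, unlike Pparg, was among the markers that named adipocytes and removed doublets. A steep Plin1 ratio is thus partly built in, and the contrast with Pparg does not show a more even spread. The Pparg level also varied within the endothelial-like nuclei. In the denervated library the shallower of 2 clusters, with 1323 nuclei and a median of 316 UMIs, held 1890 (1786 to 1998), and the other cluster of 1129 nuclei held 666 (604 to 734). In the untreated library the shallowest cluster of 1734 nuclei held 1417 (1335 to 1503) and the largest, of 2734 nuclei, held 898 (861 to 937). In the sham library the shallowest cluster was small, with 303 nuclei and a median of 493 UMIs, beside the largest of 4928 nuclei at 511. Leaving it out thus altered the sham class little. Without the shallowest cluster of each library, an alternative chosen after seeing the data, the brown to endothelial-like ratio was 1.39, 0.86 and 2.08. With stray RNA subtracted it was 1.64, 1.03 and 2.20. Over the alternatives the denervated ratio ran from 0.93 to 2.69.

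Rxra, whose product pairs with PPARG (chr2:27676440-27762957, plus strand), was lower in brown nuclei than in vessel nuclei. Brown adipocyte-like nuclei held 16.03 (13.4 to 19.1), 19.8 (16.00 to 24.2) and 13.02 (10.03 to 16.6) CPM in the untreated, sham and denervated libraries. Endothelial-like nuclei held 63.8 (55.9 to 72.5), 40.9 (34.5 to 48.1) and 41.6 (31.2 to 54.4), and pericyte-like nuclei 57.95 (39.4 to 82.3), 39.8 (28.99 to 53.2) and 32.3 (16.7 to 56.4), with intervals that overlapped in each library. The log2 ratio of brown to endothelial-like nuclei was -1.99 (-2.31 to -1.68), -1.05 (-1.44 to -0.67) and -1.68 (-2.22 to -1.12). Fibroblast-like nuclei had 1, 2 and 0 Rxra UMIs, and the 0 in the denervated library allows up to 70.5 CPM. Of the other RXR genes, Rxrg lay past 2-fold higher in brown than in endothelial-like and pericyte-like nuclei of each library. Rxrb did not pass 2-fold among the genes counted in these comparisons.

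**Figure D1:**
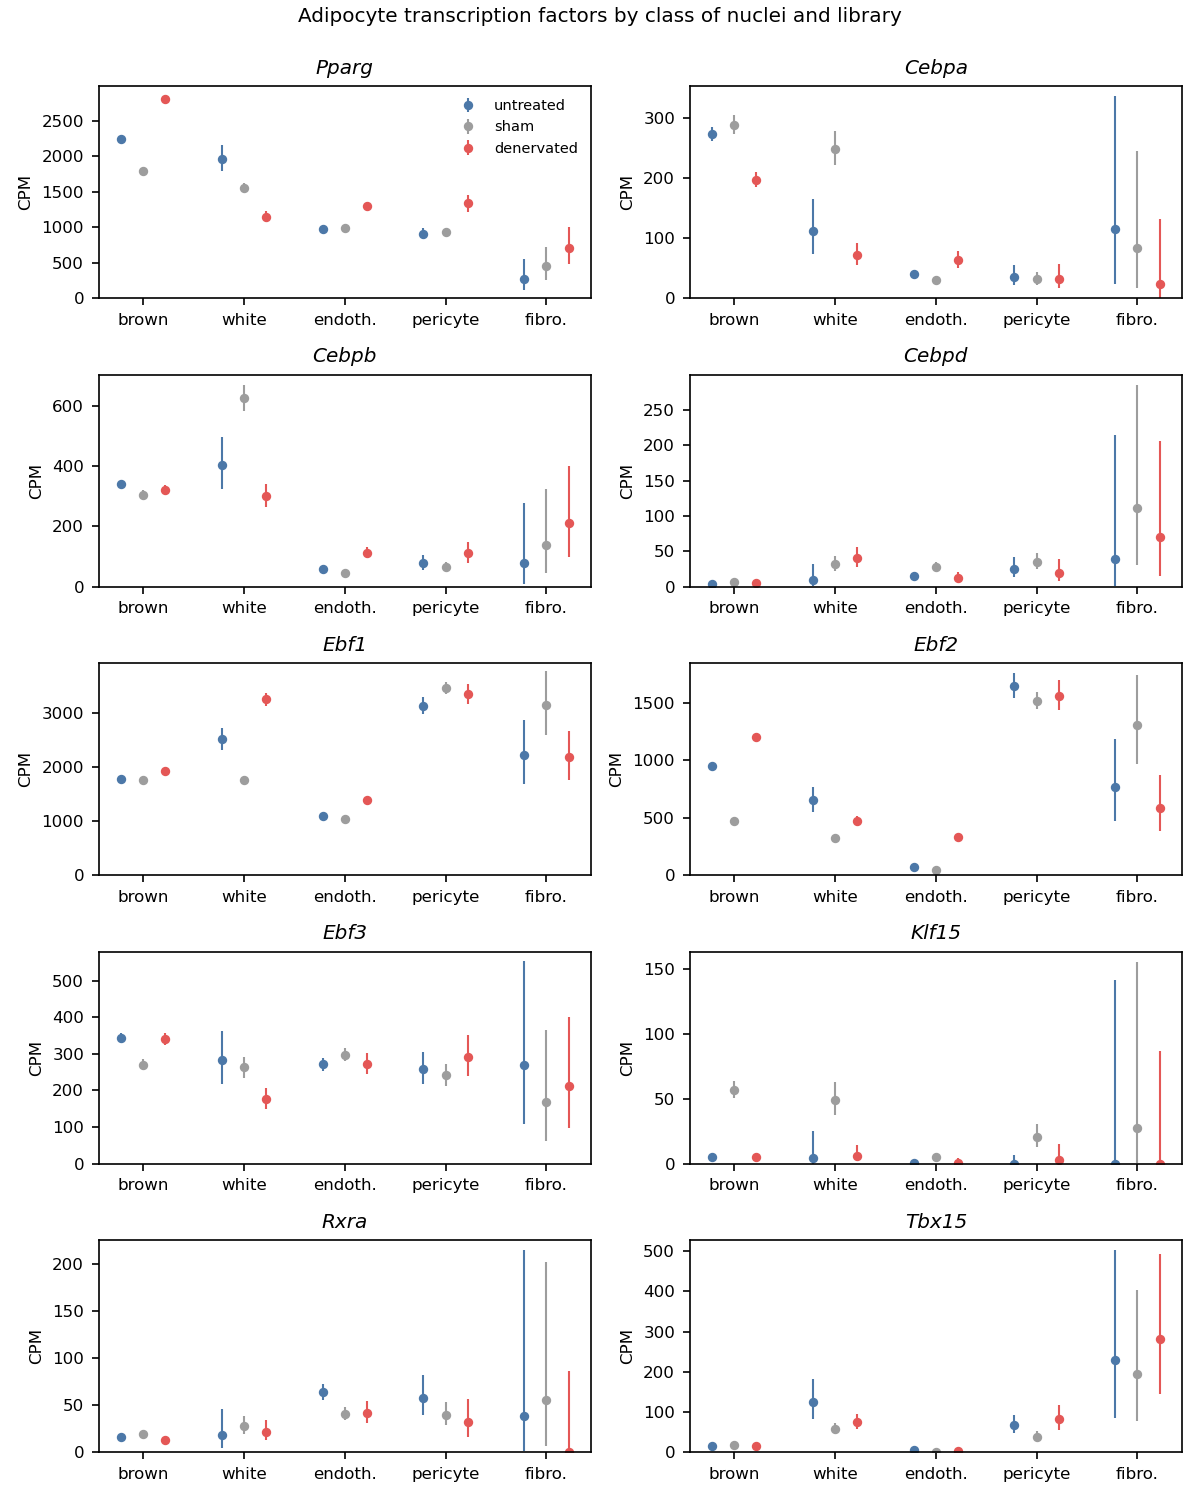
CPM of each gene (y axes, linear from 0) in brown adipocyte-like, white adipocyte-like, endothelial-like, pericyte-like and fibroblast-like nuclei of the untreated, sham and denervated libraries, 1 colour each. Points are summed counts of 1 library and bars are Poisson 95% intervals. Pparg is highest in brown nuclei, though in the untreated and sham libraries not at resolution 1, where white adipocyte-like nuclei lie above them by log2 0.15 and 0.26, Ebf1 and Ebf2 reach 3468 and 1645 in pericyte-like nuclei, and Klf15 stands out in the sham library.

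Cebpa, a 2636 bp gene that is exonic throughout (chr7:35119293-35121928, plus strand), had its highest levels in adipocytes. Brown adipocyte-like nuclei held 273 (261 to 284) CPM in the untreated, 289 (274 to 305) in the sham and 197 (185 to 210) in the denervated library. The white adipocyte-like level was 112 (72.7 to 166), 249 (222 to 278) and 71.4 (54.4 to 92.1), below the brown level without overlap in the untreated and denervated libraries. Endothelial-like nuclei held 40.3, 30.5 and 63.6 and pericyte-like nuclei 35.5, 30.9 and 32.3. The log2 ratio of brown to endothelial-like nuclei was 2.76 (2.52 to 3.01), 3.25 (2.96 to 3.54) and 1.63 (1.30 to 1.98), and 2.41 (1.81 to 3.07) in the denervated library without its shallowest endothelial-like cluster. With stray RNA subtracted it was 4.42 in the denervated library, and with at most 3 UMIs left in endothelial-like nuclei none was computed in the others. Cebpa also differed among brown nuclei. The 411 untreated nuclei led by Atf3 and Hspa1a held 149 (117 to 187) against 281 (269 to 293) in the other 3742. In the sham library the 768 stress-led brown nuclei held 281 (248 to 318) against 291 (274 to 308) in the other 2686, with overlap. The 2030 shallower denervated nuclei, with a median of 700 UMIs, held 166 (147 to 188) against 211 (196 to 227) in the other 2858.

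Cebpb, a single-exon gene of 1504 bp (chr2:167688915-167690418, plus strand), shares 908 bp with Tmem189 on the other strand. Use of strand in counting was not given in the sources used here, so reads of the shared part cannot be told apart. Brown adipocyte-like nuclei held 339 (327 to 352), 306 (290 to 322) and 322 (306 to 338) CPM, within a narrow range. Levels in white adipocyte-like nuclei were 404 (325 to 497), 626 (583 to 671) and 300 (264 to 340), and in endothelial-like nuclei 59.5 (51.9 to 67.9), 46.5 (39.7 to 54.2) and 113 (95.3 to 133). With stray RNA subtracted the log2 ratio of brown to endothelial-like Cebpb went from 2.51 and 2.72 to 5.53 and 5.72 in the untreated and sham libraries. In the sham library Cebpb was higher in the stress-led nuclei, at 513 (467 to 562) in the 768 brown nuclei against 258 (242 to 275) in the other 2686. Fos itself stood at 913 and 38.4 there and at 950 in the sham white adipocyte-like nuclei, and its part in the Cebpb levels was not tested. Cebpb was not higher in the 411 untreated brown nuclei led by Atf3 and Hspa1a. They held 289.5 (244 to 341) against 342 (329 to 356) in the other 3742. In 257 denervated immune-like nuclei Cebpb reached 589 (475 to 722).

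Cebpd (chr16:15887286-15891031, plus strand), which shares 1808 bp with Spidr on the other strand, was scarce in brown adipocytes. Their level was 4.23 (2.93 to 5.91) on 34 UMIs, 6.45 (4.38 to 9.16) on 31 UMIs and 4.68 (2.97 to 7.02) on 23 UMIs in the untreated, sham and denervated libraries. Endothelial-like nuclei held 15.1 (11.4 to 19.7), 28.2 (22.9 to 34.3) and 12.6 (7.18 to 20.4) and pericyte-like nuclei 24.3 (12.9 to 41.6), 34.5 (24.5 to 47.1) and 18.8 (7.57 to 38.8). In white adipocyte-like nuclei the level was 8.99 (1.09 to 32.5) on 2 UMIs, 31.7 (22.6 to 43.1) on 40 UMIs and 39.9 (27.5 to 56.1) on 33 UMIs, above the brown level without overlap in the sham and denervated libraries. The log2 ratio of white to brown was 2.30 (1.58 to 3.02) and 3.09 (2.28 to 3.93) in those libraries. Among sham endothelial-like clusters Cebpd stood at 94.3 (54.9 to 151) in 263 nuclei led by Plvap, Selp and Vwf and at 22.7 (17.7 to 28.6) in the largest cluster of 4928. The pattern differed in the untreated library. There the 44 nuclei led by Vwf, Plvap and Selp had 0 Cebpd UMIs, with an interval of 0 to 85.2 CPM. Another 385, led by Fos, held 61.4 (35.1 to 99.8), and the largest cluster of 2734 held 12.96 (8.80 to 18.4).

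Ebf1 (chr11:44617317-45008091, plus strand, 390775 bp) was highest outside the brown adipocytes. Pericyte-like nuclei held 3139 (2990 to 3293), 3468 (3360 to 3578) and 3350 (3166 to 3541) CPM, and fibroblast-like nuclei 2226 (1691 to 2878), 3150 (2596 to 3788) and 2186 (1764 to 2678). The brown level was 1786 (1757 to 1816), 1765 (1728 to 1803) and 1926 (1887 to 1965). White adipocyte-like nuclei held 2516 (2312 to 2733), 1763 (1691 to 1838) and 3259 (3137 to 3384), so in the denervated library they overlapped the pericyte-like level and in the sham library the brown level, though at resolution 1 the sham log2 ratio of white to brown was -0.60. Endothelial-like nuclei held 1094, 1041 and 1384. Among sham endothelial-like clusters Ebf1 ran from 197 (108 to 330) in 80 nuclei to 1953 (1754 to 2168) in the 263 led by Plvap.

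Ebf2 (chr14:67233292-67430918, plus strand), which overlaps 5 genes on the other strand, was highest in pericyte-like nuclei, followed by other classes in an order that differed by library. Its level in pericyte-like nuclei was 1645 (1538 to 1757), 1518 (1447 to 1592) and 1561 (1436 to 1693), with overlapping intervals in all 3 libraries. In brown adipocyte-like nuclei it was 951 (929 to 972) in the untreated, 473 (453 to 493) in the sham and 1200 (1170 to 1231) in the denervated library, with no overlap. The contrast between the classes was not tested. White adipocyte-like nuclei held 652 (550 to 767), 321 (290 to 354) and 470 (424 to 519), each below the brown level of its library, though at resolution 1 the log2 ratio of white to brown in the untreated library was 0.01. Endothelial-like nuclei held 72.8 (64.3 to 81.98), 44.6 (37.9 to 52.1) and 334 (303 to 368). The denervated endothelial-like level was 560 (504 to 620) in the shallower cluster and 96.8 (73.9 to 125) in the other.

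Ebf3 (chr7:137193673-137314445, minus strand) differed by less than 2-fold between brown, endothelial-like and pericyte-like nuclei, except that at resolution 1 the log2 ratio of brown to pericyte-like nuclei in the untreated library was 1.03 instead of 0.41. Its level was 343 (330 to 356), 271 (256 to 286) and 340 (324 to 357) in brown, 271 (255 to 288), 298 (280 to 317) and 273 (245 to 304) in endothelial-like and 258 (217 to 305), 241 (213 to 272) and 291 (238 to 351) in pericyte-like nuclei. The log2 ratio of brown to endothelial-like nuclei was 0.34 (0.23 to 0.44), -0.14 (-0.26 to -0.02) and 0.32 (0.15 to 0.49). In white adipocyte-like nuclei the level was 283 (218 to 362), 263 (235 to 293) and 177 (149 to 208). The denervated level lay below the brown one without overlap, at a log2 ratio of -0.94 (-1.20 to -0.70), and at -1.23 with stray RNA subtracted.

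Klf15 (chr6:90462576-90475238, plus strand), whose promoter is shown above, set the sham library apart. Brown adipocyte-like nuclei held 5.59 (4.08 to 7.48) on 45 UMIs in the untreated, 56.8 (50.3 to 63.97) on 273 UMIs in the sham and 4.88 (3.13 to 7.27) on 24 UMIs in the denervated library. White adipocyte-like nuclei held 4.49 (0.114 to 25.03) on 1 UMI, 49.1 (37.6 to 62.9) on 62 UMIs and 6.05 (1.96 to 14.1) on 5 UMIs. The sham interval lay above the others in both classes. Sham pericyte-like nuclei held 20.3 (12.9 to 30.5) on 23 UMIs, whereas untreated ones had none among 534924 UMIs, which allows up to 5.61 CPM. Against that limit, 3 counts over the class, the sham level was higher by a log2 ratio of at least 1.86, and the lower end of the counting interval of the ratio was 1.44. Endothelial-like nuclei had 3, 19 and 1 UMIs, a log2 ratio of sham to untreated of 2.72 (0.96 to 5.12). With stray RNA subtracted, 0, 0 and 0 of these UMIs were left. Within the sham library brown nuclei exceeded endothelial-like nuclei by a log2 ratio of 3.41 (2.74 to 4.16). The 768 stress-led sham brown nuclei held 37.96 (26.3 to 53.1) CPM of Klf15 and the other 2686 held 61.1 (53.6 to 69.4), so the high sham level was present in both.

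Tbx15 (chr3:99240381-99354259, plus strand) was highest in fibroblast-like nuclei, at 230 (84.5 to 501) on 6 UMIs, 195 (78.5 to 402) on 7 UMIs and 282 (146 to 493) on 12 UMIs. Levels in white adipocyte-like nuclei were 126 (83.6 to 182), 57.8 (45.3 to 72.7) and 75.02 (57.5 to 96.2), and in pericyte-like nuclei 67.3 (47.1 to 93.2), 38.9 (28.2 to 52.2) and 83.4 (56.7 to 118). The brown level was 16.3 (13.6 to 19.3), 19.4 (15.6 to 23.7) and 16.9 (13.5 to 20.9), with overlapping intervals. White adipocyte-like nuclei were above brown nuclei in each library without overlap, by a log2 ratio of 2.95 (2.31 to 3.55), 1.58 (1.12 to 2.04) and 2.15 (1.65 to 2.64). Endothelial-like nuclei held 5.41, 2.26 and 3.93. With stray RNA subtracted, 6, 0 and 0 of their 20, 8 and 5 Tbx15 UMIs were left.

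In each comparison a gene was counted where at least 10 UMIs were expected in the smaller group at the pooled rate, and was called past a 2-fold ratio. Between brown and endothelial-like nuclei of the untreated library all 10 genes were counted. Pparg, Cebpa, Cebpb, Ebf2, Klf15 and Tbx15 were called higher in brown nuclei, 6 genes where 26.9% of all counted genes were, and Cebpd and Rxra lower, 2 genes where 18.9% were. In the sham library the 5 called higher were the same without Pparg (24.5% of all genes), and the same 2 were called lower (20.3%). The sham Rxra ratio of -1.05 fell short of 2-fold with a minimum of 500 genes (-0.75), at most 10% mitochondrial UMIs (-0.88) or no clusters (-0.88), while with stray RNA subtracted Pparg (1.03) and Ebf1 (1.01) passed it there. In the denervated library 8 genes were counted, Pparg, Cebpa, Cebpb, Ebf2 and Tbx15 were called higher (16.5%) and Rxra lower (15.1%). Klf15 also lay past 2-fold higher and Cebpd past 2-fold lower, but under 10 UMIs were expected and neither was counted. There Ebf1 passed 2-fold with stray RNA subtracted (1.07), with a minimum of 500 genes (1.30) or without the shallowest endothelial-like cluster (1.16), instead of 0.48, and Pparg fell short of it without doublet removal (0.93). The median log2 ratio of the counted members was 1.40, 1.79 and 1.31, and that of all counted genes 0.27, 0.13 and 0.13.

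Against pericyte-like nuclei 7, 10 and 6 genes were counted. Cebpa and Cebpb were called higher in brown nuclei in each library, joined by Pparg in the untreated (23.3% of all genes) and denervated (21.6%) libraries and by Klf15 in the sham library (21.8%). Tbx15 was called lower in the untreated library (13.4%). Cebpd, Ebf2, Rxra and Tbx15 were called lower in the sham library (20.3%) and none in the denervated one (10.5%). By the levels above, Cebpd and Rxra in the untreated library also lay past 2-fold lower in brown nuclei, as did Cebpd, Rxra and Tbx15 in the denervated library. They were not counted there, since under 10 UMIs were expected.

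**Figure D2:**
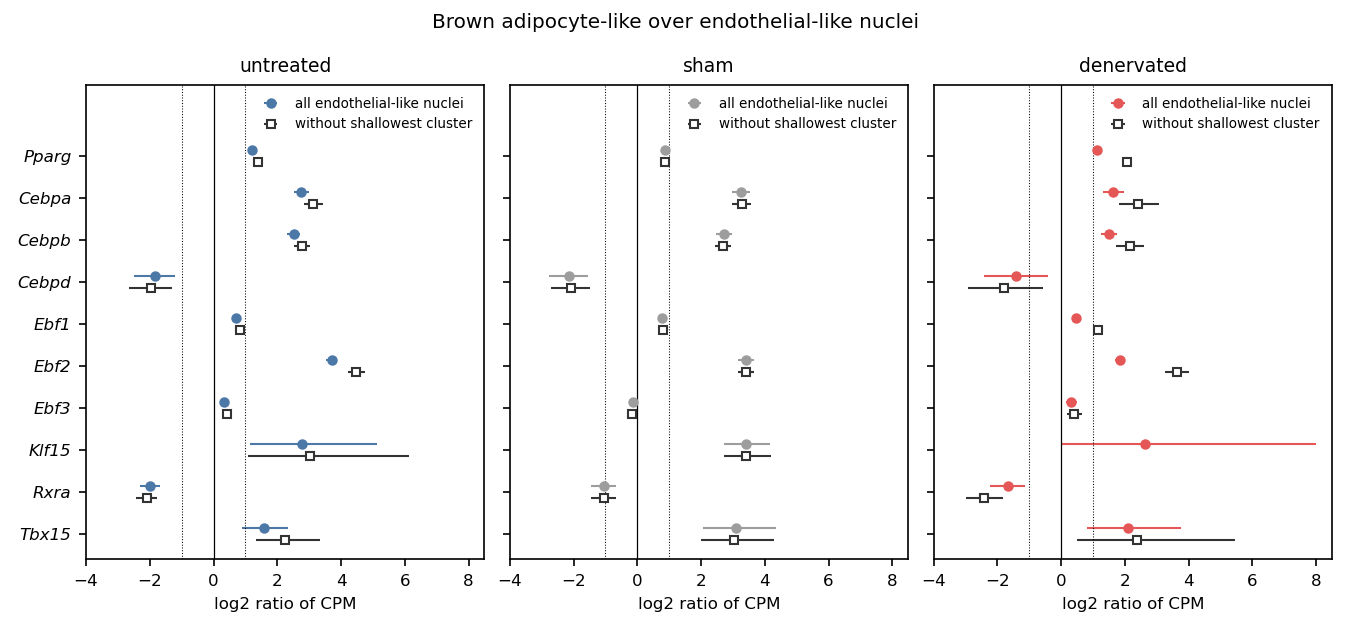
Log2 ratio of CPM in brown adipocyte-like to endothelial-like nuclei (x axis) for each gene (y axis) in the 3 libraries. Filled circles use all endothelial-like nuclei, open squares leave out the endothelial-like cluster with the lowest median UMIs, bars are 95% intervals and dotted lines a 2-fold ratio. In the sham library that cluster held 303 nuclei, and the largest, of 4928, was kept. Ebf2 in the denervated library moves from 1.84 to 3.63 and Rxra lies below 0 in all 3 libraries.

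In white against brown adipocyte-like nuclei of the untreated library 6 genes were counted, none was called higher (4.93% of all genes) and Cebpa was called lower (17.9%). At resolution 1 Cebpa stood at -0.83 instead of -1.28 and was not called. Tbx15, at 2.95 (2.31 to 3.55), was not counted there, since under 10 UMIs were expected, and it stood at 1.18 at resolution 1. Cebpd also lay past 2-fold higher there by the levels above and was not counted either. In the sham library all 10 were counted, Cebpb, Cebpd and Tbx15 were called higher (7.16%) and none lower (16.3%). In the denervated library 8 were counted, Tbx15 was called higher (8.58%) and Pparg, Cebpa and Ebf2 lower (23.2%). Cebpd lay past 2-fold higher there by the levels above, but under 10 UMIs were expected and it was not counted. The Cebpb log2 ratio in the sham library, 1.03 (0.91 to 1.16), depended on which nuclei were taken as white adipocyte-like. At a finer clustering, which left 127 such nuclei instead of 928, it was -0.50. It also fell short of 2-fold with a minimum of 500 genes (0.96) or no clusters (0.76), as the denervated Cebpa ratio did with no clusters (-0.95). The sham Cebpd and Tbx15 ratios both stood at 2.19 at resolution 1, but under 10 UMIs were expected and neither was counted. With no clusters Cebpd (1.41) was not counted either.

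Shares of nuclei with a UMI were compared after thinning each nucleus to 500 UMIs. This left out 22, 200 and 530 brown and 1709, 2607 and 1634 endothelial-like nuclei. Pparg was then found in 61.8%, 52.2% and 67.9% of brown and in 30.7%, 32.4% and 38.8% of endothelial-like nuclei. Ebf2 was found in 35.8%, 18.2% and 40.7% of brown and in 2.36%, 1.65% and 15.04% of endothelial-like nuclei. The endothelial-like share of Ebf2 stood highest in the denervated library, which also had the highest stray RNA estimate in these nuclei. Cebpa was found in 12.01%, 13.4% and 7.07% of brown and in 1.79%, 0.977% and 3.79% of endothelial-like nuclei. Klf15 was found in 0.291%, 2.55% and 0.344% of brown nuclei, and in 0.0288% and 0.236% of endothelial-like nuclei of the untreated and sham libraries. Without thinning the shares in brown nuclei were 92.2%, 77.01% and 81.04% for Pparg and 1.08%, 6.80% and 0.471% for Klf15.

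Denervated and untreated brown adipocyte-like nuclei differed by less than 2-fold in each of the 10 genes, where 6.64% of all counted genes were called higher and 1.77% lower. The log2 ratio of denervated to untreated was 0.34 (0.29 to 0.39) for Ebf2, 0.32 (0.29 to 0.35) for Pparg and 0.11 (0.07 to 0.15) for Ebf1. For Cebpa it was -0.47 (-0.58 to -0.36). Several of these ratios moved when depth was matched. In 1969 nuclei of each library matched on UMIs, Cebpa held 262 CPM in the denervated and 233 in the untreated library, a log2 ratio of 0.17 (0.02 to 0.32) and thus of the opposite sign. Cebpb moved from -0.08 (-0.17 to 0.01) to 0.44 (0.31 to 0.57) and Ebf1 to -0.26 (-0.31 to -0.20), while Ebf2 and Pparg kept their sign at 0.13 (0.06 to 0.20) and 0.16 (0.11 to 0.21). On the mean of log2(counts per 10000 + 1) per nucleus, which depends on depth, both turned, to -0.12 for Ebf2 and -0.12 for Pparg.

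Against the sham library 2 genes passed a 2-fold ratio. In denervated to sham brown nuclei Ebf2 was called higher at 1.34 (1.27 to 1.42), where 15.4% of all genes were called higher, and Klf15 lower at -3.54 (-4.21 to -2.94), where 9.09% were. Pparg stood at 0.64 (0.61 to 0.68), Cebpa at -0.55 (-0.67 to -0.43) and Rxra at -0.60 (-1.08 to -0.13). In sham to untreated nuclei Klf15 was called higher at 3.34 (2.89 to 3.83), where 8.51% of all genes were, and Ebf2 lower at -1.01 (-1.08 to -0.94), where 9.52% were. The Ebf2 ratio lay at the 2-fold line, and it stood at -0.99 with at most 10% mitochondrial UMIs, -0.96 with totals free of mitochondrial UMIs and -0.98 in the largest sub-cluster, each short of the call. These comparisons share libraries and are not independent. With nuclei matched on UMIs Klf15 stood at -3.74 (-4.61 to -2.99) and 3.23 (2.63 to 3.88), and Ebf2 at 1.30 (1.22 to 1.39) and -1.07 (-1.15 to -0.99). The other 8 genes lay within 2-fold in both comparisons, but Cebpd in sham to untreated nuclei stood at 1.20 instead of 0.61 when nuclei were classed without clusters.

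**Figure D3:**
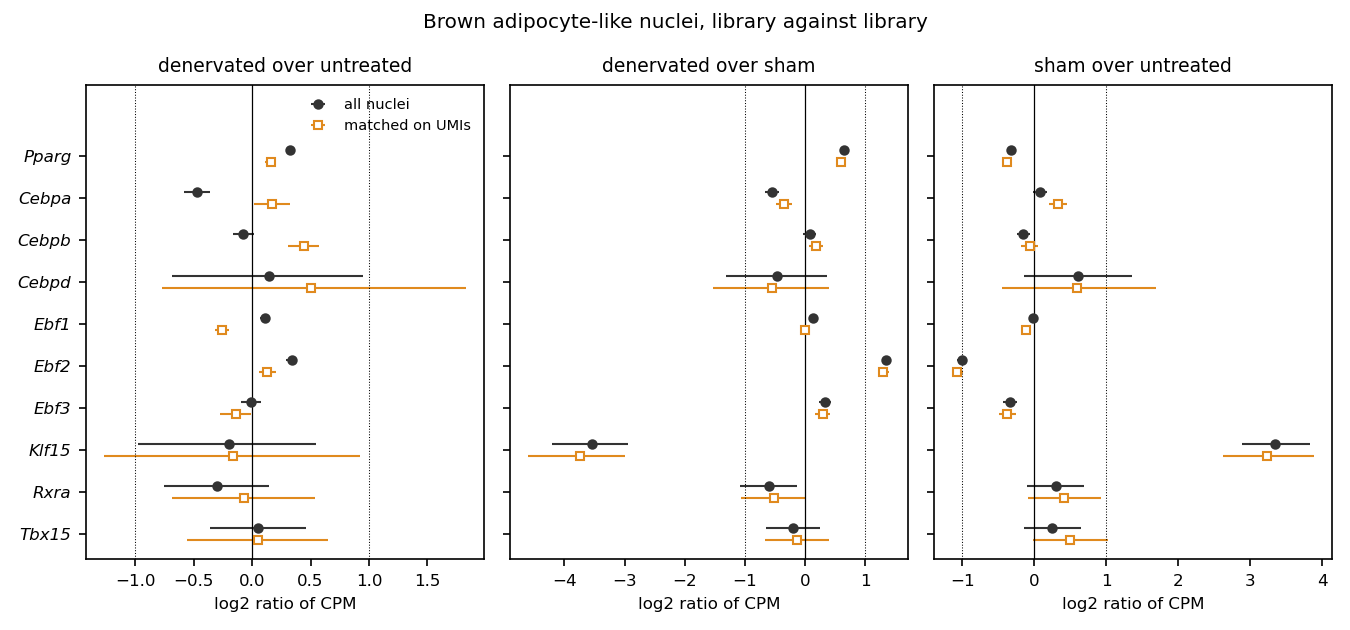
Log2 ratio of CPM in brown adipocyte-like nuclei (x axis) for each gene (y axis) in denervated to untreated, denervated to sham and sham to untreated libraries. Filled circles use all nuclei, open squares nuclei matched on UMIs, bars are 95% intervals and dotted lines a 2-fold ratio. Klf15 at -3.54 and 3.34 and Ebf2 at 1.34 and -1.01 set the sham library apart, and Cebpa changes sign with matching in denervated to untreated nuclei.

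Of 63 other regulators of adipocytes, 56 were counted between libraries. In denervated to untreated brown nuclei none was called higher and Twist1, a basic helix-loop-helix factor, was the 1 called lower, at -1.72 (-3.46 to -0.32) on 5 against 27 UMIs, where 6.64% and 1.77% of all genes were. Of 20 known PPARG targets Retn, which encodes resistin, was the 1 called, higher at 1.52 (1.12 to 1.93). Retn was also among the white markers used to split adipocyte nuclei, so its brown level depends on that split. In pericyte-like nuclei it stood at 2.43 (0.78 to 4.48) on 15 against 4 UMIs, and the part of stray RNA was not tested. The median of the targets was -0.11 and that of all genes 0.02. In sham to untreated brown nuclei 4 regulators were called higher and 7 lower, where 8.51% and 9.52% of all genes were. Zbtb16, a zinc finger factor that the glucocorticoid receptor is known to induce, stood at 628 CPM in the sham and 58.3 in the untreated library, a log2 ratio of 3.43 (3.29 to 3.57) beside the 3.34 of Klf15. A part of the glucocorticoid receptor in either ratio was not tested. Irf4, a partner of PGC-1α, stood at 1.92 and Ddit3 at 1.43, whereas Srebf1, which drives lipogenic genes, stood at -1.69, Atf4 at -1.45 and Zfp467 at -1.36. Of the targets, 4 were called higher and 3 lower. Angptl4, an inhibitor of lipoprotein lipase, stood at 2.73 and Retn at 2.85, whereas Lep, which encodes leptin, stood at -2.23 and Agpat2 at -1.36. Lep, like Retn, was among the white markers used to split adipocyte nuclei.

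In denervated to sham brown nuclei 8 regulators were called in each direction, where 15.4% of all genes were called higher and 9.09% lower. Those largest in size were Zbtb16 at -2.50, Twist1 at -2.23, Irf4 at -1.94, Srebf1 at 1.74, Ddit3 at -1.68, Esrrb at 1.65, Klf6 at 1.59 and Zfp467 at 1.54. Among the targets Lep was called higher at 2.22, and 4 were called lower, of which Angptl4 stood at -2.59. The targets' median was -0.28 and that of all genes 0.09, while Pparg itself stood at 0.64.

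Endothelial-like nuclei of the denervated library held more Ebf2 than untreated ones, at a log2 ratio of 2.20 (1.98 to 2.43). Cebpb stood at 0.93 (0.61 to 1.24), Cebpa at 0.66 (0.25 to 1.06) and Pparg at 0.41 (0.32 to 0.49). Markers of brown adipocytes lay higher in these nuclei too, with Cidea at 1.74, Plin1 at 1.68 and Ucp1 at 0.90, whereas the endothelial genes Pecam1 and Cdh5 stood at -0.53 and -0.52. The brown markers summed to 711 CPM in the untreated and 1748 in the denervated endothelial-like nuclei, with stray RNA estimated at 22.8% and 44.01%. After its subtraction, an alternative added after seeing the data, no Ebf2 UMIs were left in either, and Pparg stood at 741 and 636 CPM. The ratios also moved with the shallow clusters. Without the shallowest cluster of each library Ebf2 stood at 1.19 (0.72 to 1.64), Cebpb at 0.55 (0.03 to 1.04), Cebpa at 0.25 (-0.48 to 0.92) and Pparg at -0.37 (-0.52 to -0.22). Rxra moved from -0.62 to 0.02.

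The size of the pericyte-like class depended on the clustering. At resolution 1 it held 217 untreated, 1446 sham and 90 denervated nuclei instead of 621, 1386 and 783. The ratios below are not for that setting. In pericyte-like nuclei Pparg stood at 0.56 (0.37 to 0.74) in denervated to untreated and at 0.51 (0.36 to 0.67) in denervated to sham nuclei. Ebf1 stood at 0.09 and -0.05 and Ebf2 at -0.08 and 0.04. The brown markers summed to 679, 617 and 1259 CPM in pericyte-like nuclei of the untreated, sham and denervated libraries, while the pericyte markers summed to 14630, 16340 and 8174 and Rgs5, a pericyte marker, stood at -1.44 in denervated to untreated and -1.54 in denervated to sham nuclei. The part of either in the Pparg ratio was not tested. Tbx15 was the 1 member called between libraries in this class, higher in denervated than in sham nuclei at 1.10 (0.39 to 1.80) on 31 against 44 UMIs, where 6.88% of all genes were called higher. Smooth muscle-like nuclei formed a group of their own in the sham library alone. With them added to its pericyte-like nuclei Ebf1 stood at 3409, Ebf2 at 1386 and Tbx15 at 53.1 CPM. The Tbx15 ratio of denervated to sham was then 0.65 (0.00 to 1.27) and not called, an alternative added after seeing the data.

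The study asks how brown adipocytes with and without c-Kit, the receptor for stem cell factor, differ. Brown adipocyte-like nuclei with a Kit UMI numbered 1671, 161 and 779, and those without 2482, 3293 and 4109. With Kit itself excluded from the totals, the median log2 ratio of Kit-positive to Kit-negative nuclei over the 10, 7 and 8 genes counted was 0.11, -0.05 and -0.01. Thinned to 500 UMIs, Kit was found in 14.5%, 1.998% and 8.56% of brown and in 2.36%, 1.31% and 7.09% of endothelial-like nuclei. Kit-positive nuclei were deeper, with medians of 2112, 1655 and 1202 UMIs against 1735, 1370 and 851. Cebpa stood at 0.20 (0.08 to 0.32), -0.05 (-0.41 to 0.28) and 0.50 (0.29 to 0.71), and at 0.07 (-0.06 to 0.21), 0.06 (-0.43 to 0.55) and 0.26 (-0.01 to 0.53) in nuclei matched on UMIs. Ebf1 stood at -0.16 (-0.20 to -0.11), -0.13 (-0.27 to 0.01) and -0.23 (-0.31 to -0.16), and at -0.07 (-0.12 to -0.01), 0.03 (-0.17 to 0.23) and -0.18 (-0.28 to -0.08) when matched. Tbx15 stood at 0.62 (0.11 to 1.15) in the untreated library, and at 0.997 (0.37 to 1.65) when matched, on 66 against 33 UMIs. In the denervated library it stood at -0.70 (-1.76 to 0.23), and at -0.245 (-1.55 to 1.03) when matched, on 11 against 13 UMIs. Rxra stood at 0.88 (0.03 to 1.67) in that library on 20 against 44 UMIs, and at 0.51 (-0.55 to 1.61) when matched. Cebpb stood there at 0.25 (0.08 to 0.42) and at -0.03 (-0.24 to 0.19) when matched, and Ebf3 in the sham library at 0.43 (0.11 to 0.73) and 0.40 (-0.06 to 0.86). With a minimum of 2 Kit UMIs in place of 1, Tbx15 stood at 0.52 (-0.20 to 1.20) in the untreated, Ebf3 at -0.03 (-1.03 to 0.82) in the sham and Cebpa at 0.70 (0.29 to 1.08) in the denervated library. Ebf1 then stood at -0.22 (-0.29 to -0.15), -0.50 (-0.92 to -0.11) and -0.39 (-0.56 to -0.22), the sham value on 26 Kit-positive nuclei. Cebpb stood at 0.25 (0.10 to 0.39) in the untreated library. These nuclei were not matched on UMIs.

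**Figure D4:**
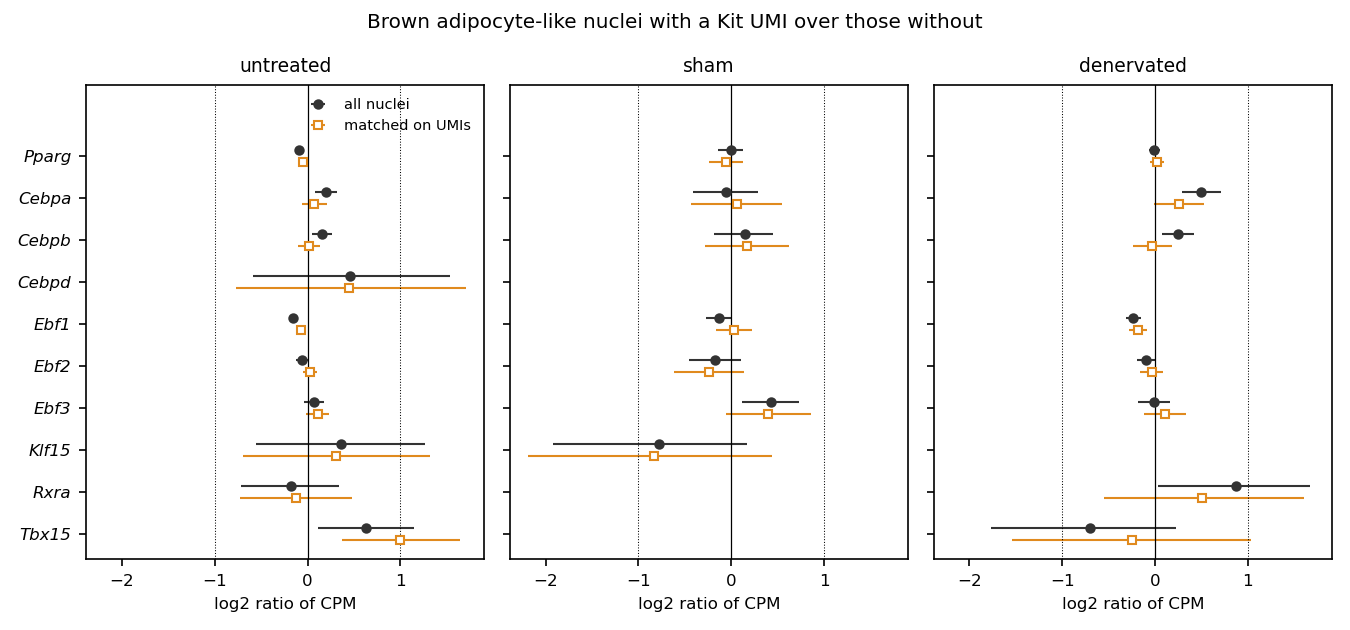
Log2 ratio of CPM in brown adipocyte-like nuclei with at least 1 Kit UMI to those with none (x axis) for each gene counted (y axis) in the 3 libraries. Filled circles use all nuclei, open squares nuclei matched on UMIs, bars are 95% intervals and dotted lines a 2-fold ratio. Cebpa in the denervated library moves from 0.50 to 0.26 with matching.

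Across 18 points, each 1 class of at least 50 nuclei in 1 library, the members most alike in pattern over the points, though not in level, were Ebf1 and Tbx15. Pearson's r of log2(CPM + 1) was 0.86 for that pair, 0.78 for Ebf2 with Tbx15, 0.77 for Cebpa with Cebpb, 0.75 for Ebf1 with Ebf2 and 0.73 for Pparg with Cebpa. Cebpd stood at -0.79 with Pparg and at -0.67 with Cebpa. The points share libraries, depth and stray RNA, so these values are a description. Among 11208 genes with at least 200 UMIs, those most like Pparg were Gm45062 (0.94) and Ankrd9 (0.92), those most like Rxra Tex261 (0.96) and Plekha3 (0.94), and those most like Klf15 Mapk1ip1 (0.88) and Il15ra (0.86). For the C/EBP genes they were Slc25a51 (0.90) and Cdo1 (0.89) for Cebpa, Por (0.90) and Tbc1d4 (0.89) for Cebpb and Tnrc18 (0.89) and Fkbp5 (0.84) for Cebpd. For the EBF genes they were Dlc1 (0.92) and Prrx1 (0.88) for Ebf1, Sox5 (0.93) and Angpt1 (0.92) for Ebf2 and Tmem65 (0.92) and Edc3 (0.90) for Ebf3. For Tbx15 they were Prrx1 (0.97) and Jph1 (0.89).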

How the data were processed

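The deposited tables hold UMI counts per gene and nucleus, whole numbers that the authors obtained with the BD Rhapsody whole-transcriptome kit. Per the file headers of the untreated and denervated tables they come from the BD pipeline, version 1.9, on GRCm38, and the sham table has no such header. The labels name Seurat 4.0.6. Of 13707, 15368 and 15822 barcodes (untreated, sham, denervated; 14971579, 14725864 and 9420030 UMIs), those with under 200 genes or over 50% mitochondrial UMIs were left out, then 1120, 1984 and 1023 with exclusive markers of more than 1 class as doublets, which left 10672, 12043 and 9439. Nuclei were clustered on 2000 variable genes and 30 components (resolution 0.5, scikit-learn 1.9.0, python-igraph 0.11.9) and named by markers, with adipocytes re-clustered. In the untreated, sham and denervated libraries 441, 46 and 48 nuclei stayed unnamed and entered no class. Of the untreated ones 440 were an adipocyte sub-cluster with a median of 656 UMIs. UMIs were summed by class. Levels have Poisson, shares Clopper-Pearson and ratios conditional binomial 95% intervals. Those of the ratios were checked on simulated Poisson counts, and the others at 1 known value each. The members and lists were chosen with earlier results of these data known. Named are all 10 members, the other RXR genes, regulators and targets past 2-fold between libraries in brown nuclei (at most 10 a comparison) and the 2 genes most like each member. Gene positions are from GENCODE vM21. Alternatives covered filters, doublets, clustering, stray RNA, depth, totals and scale.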

Additional observations from a re-analysis of the deposited data

Results flagged for a closer look

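Cebpa and Cebpb had log2 ratios of opposite sign in denervated to sham nuclei of different classes. For Cebpa the ratio was 1.06 (0.63 to 1.49) in endothelial-like and -1.80 (-2.23 to -1.40) in white adipocyte-like nuclei. For Cebpb it was 1.28 (0.95 to 1.61) in endothelial-like, 0.77 (0.19 to 1.35) in pericyte-like and -1.06 (-1.27 to -0.85) in white adipocyte-like nuclei. The differences between classes were not tested, since each library is 1 sample. In endothelial-like nuclei the brown markers summed to 578 CPM in the sham and 1748 in the denervated library, Cidea stood at 2.33 and Plin1 at 1.82, and stray RNA was estimated at 20.6% and 44.01%. Its subtraction left 3 and 7 of 108 and 81 Cebpa UMIs and 17 and 1 of 165 and 144 Cebpb UMIs there. At resolution 1, which left 127 sham white adipocyte-like nuclei, the white adipocyte-like Cebpb ratio was 0.54 (0.04 to 1.08) and no longer opposite in sign, while that of Cebpa was -2.26 (-2.84 to -1.68). This setting was added for these nuclei after seeing the data. Without the shallowest endothelial-like clusters the endothelial-like ratios were 0.31 (-0.41 to 0.98) for Cebpa and 0.61 (0.10 to 1.09) for Cebpb. The sham cluster left out there held 303 nuclei at a median of 493 UMIs, near the 511 of the largest. Fos stood at 950 CPM in the sham and 215 in the denervated white adipocyte-like nuclei, and its part in the ratios was not tested.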

How the results depend on the processing

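Over 19 alternatives, 817 of 1065 single log2 ratios and shares kept their value within the counting interval, 247 moved and 1 changed sign past a 2-fold call, the Cebpb ratio of white to brown nuclei in the sham library, which was -0.50 at resolution 1 against 1.03. Of 190 counts and medians 166 stayed within 1.5 times and 24 did not. Between brown and endothelial-like nuclei the members called lower were 1 instead of 2 in the untreated library at 30 expected UMIs. In the sham library they were 1 instead of 2 with at least 500 genes, at most 10% mitochondrial UMIs or no clusters. In the denervated library they were 0 instead of 1 with 500 genes or 30 expected UMIs and 2 without doublet removal. Against untreated pericyte-like nuclei they were 0 instead of 1 with 500 genes, 10% mitochondrial UMIs, resolution 1, no clusters or 30 expected UMIs, and 2 without doublet removal. In white against brown nuclei the denervated members called higher were 0 instead of 1 without clusters or at 30 expected UMIs, the untreated ones called lower 0 instead of 1 at resolution 1, and the sham ones called higher 0 at resolution 1 and 1 without clusters, instead of 3. In brown nuclei, with the sham library in place of the untreated as the comparison, 1 was called higher and 1 lower instead of 0 and 0. In sham to untreated nuclei 0 instead of 1 were called lower with 10% mitochondrial UMIs, totals without mitochondrial UMIs or the largest sub-cluster alone, and 2 instead of 1 were called higher without clusters. Member calls that changed were sorted by reason, leaving aside the sham library as comparison and the subtraction of stray RNA. In 21 the ratio stayed past 2-fold and the UMIs needed to be counted were gained or lost. Among them were those of Rxra in denervated brown to endothelial-like and of Tbx15 in untreated brown to pericyte-like nuclei. In 17 the ratio itself crossed 2-fold, among them those of Rxra in sham and of Cebpa in untreated nuclei. With stray RNA subtracted, Pparg and Ebf1 in sham and Ebf1 in denervated brown to endothelial-like nuclei also crossed it. So did Ebf3 in denervated white to brown nuclei. The largest sub-cluster and the unnamed sub-clusters were alternatives chosen after seeing the data. At 10% mitochondrial UMIs the untreated library had no white adipocyte-like nuclei. No paired analysis was possible because each treatment is 1 library.

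Depth limits Klf15, Cebpd, Rxra and Tbx15, which rest on under 50 UMIs in many classes.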
